A study of Rattus norvegicus with 12 samples.

Results

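Serine, one-carbon and transsulfuration metabolism was examined in F111 cells through 10 enzyme genes: Phgdh, Psat1 and Psph of serine synthesis, Shmt1 and Shmt2 of serine and glycine exchange, Mthfd1, Mthfd2 and Mthfd1l of the folate cycle, and Cth and Cbs of transsulfuration. They were chosen by name for their place in the pathway, with earlier results of these data known. Every probe set that carried only 1 of these symbols was taken. This gave 1 probe set for each of the 10 genes, out of 14217 genes measured. F111 is a rat fibroblast cell line. In the A16 state the cells were plated on plastic and stayed adherent for 16 h, and in the NA16 state they were kept in suspension for 16 h. The paper reports that only a minority of the cells stayed viable when suspended for this long. It describes the suspended cells as rich in apoptotic proteins, with fragmented DNA. Loss of viability thus went together with the state, and the part of cell death and RNA loss in the changes below was not tested. The labels give both states the same serum-containing medium and name no gene alteration and no drug in either. Each state had 3 Affymetrix rat arrays, labelled biological replicate 1, biological replicate 2 and technical replicate 2. Technical replicate 2 was averaged with biological replicate 1, so that the main tests compared 2 replicates with 2.

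Cells make serine from a glycolytic intermediate by the successive action of the products of Phgdh, Psat1 and Psph. Serine hydroxymethyltransferases then pass a carbon from serine to tetrahydrofolate and leave glycine, in the cytosol through Shmt1 and in mitochondria through Shmt2. Mitochondrial Mthfd2 and Mthfd1l carry that carbon on to formate, and cytosolic Mthfd1 takes formate up again for purine and thymidylate synthesis. Serine also meets homocysteine in transsulfuration, where Cbs makes cystathionine and Cth splits it to give cysteine. Several of these genes are known targets of ATF4, the transcription factor of the integrated stress response.

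The 6 arrays had median RMA intensities of 152.1 to 157.1 on the linear scale. Pearson's r over probe sets was at least 0.9897 within a state and at most 0.961 between states. The fibroblast markers Vim, Col1a1 and Col1a2 were bright in A16, at 14.63, 14.60 and 14.52 log2 units, while Fap was dim at 6.08. The summed linear intensity of 10 fibroblast markers (3 called higher, 0 lower) was 112500 to 129700 in A16 and 96570 to 125700 in NA16. The called fibroblast markers were Pdgfrb, Pdgfra and Thy1 (log2 changes of 1.40, 0.78 and 0.47). The dimmer probe sets of Pdgfrb were not called, at 0.16 and 0.19. Some of the sums for other cell types moved with the state. Summed macrophage markers (6 genes, 2 of them called higher) ranged from 463.3 to 542.9 in A16 and from 789 to 869.8 in NA16, and summed epithelial markers (6 genes, 2 called higher, Krt8 the brightest) from 1244 to 1431 and from 2674 to 3129. Endothelial markers (5 genes, 1 called higher) summed to 276.9 to 313.4 and to 327.9 to 336.8, and hepatocyte markers (6 genes, 0 called, 1 at an unadjusted p below 0.05 by limma) to 503.2 to 577.6 and to 525.7 to 546.3. The called markers of these other cell types were Cd68 and Lyz2 (log2 changes of 1.46 and 1.15), Krt8 and Epcam (1.26 and 0.54) and Pecam1 (0.48), and 0 were called lower. Ptprc, Cdh1 and Kdr were not called, with log2 means of 5.82, 5.21 and 5.60 in A16 and of 5.68, 5.30 and 5.54 in NA16. A second, dimmer probe set of Kdr rose by 0.44, from 5.09 to 5.53. The part of other cell types in the results was not tested. In bulk RNA, fewer cells of a type and less RNA per cell cannot be told apart.

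Most of the 10 enzyme genes were lower in suspended cells. At an adjusted p below 0.05 in limma 7 fell, 1 rose and 2 were not called. Over all genes 38.9% were called, 16.9% as lower and 21.9% as higher in NA16. The median log2 change of the 10 genes was -1.08, and that of all genes was 0.01. With the fit over every probe set, the same 7 probe sets were called lower, against 13.2% of all probe sets. The 3 arrays of a state lay all above or all below the other 3 in 8 of the 10 genes, and in 51.7% of all genes. The 10 genes did not change to the same extent. Shmt2, Mthfd1, Cth, Psph and Shmt1 were 2.73-fold to 3.81-fold lower in NA16, Psat1 and Mthfd2 were 1.64-fold and 1.44-fold lower, and Mthfd1l was 1.61-fold higher.

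The serine synthesis genes of the later steps had lower RNA levels, and enzyme activity was not measured. Psat1, the aminotransferase of the middle step, read 13.18, 12.97 and 13.22 log2 units in A16 biological replicate 1, biological replicate 2 and technical replicate 2, and 12.51, 12.33 and 12.34 in the same order in NA16. All 3 NA16 arrays were below all 3 A16 arrays. The log2 change from A16 to NA16 was -0.71 (SE 0.13, adjusted p = 0.0044 by limma), with means of 13.09 ± 0.16 and 12.38 ± 0.07 (SD, n = 2). Psph, the phosphatase that releases free serine, read 10.32, 10.16 and 10.44 in A16 and 8.89, 8.72 and 8.78 in NA16. The states were 1.27 log2 units apart at their nearest arrays. The change of Psph was -1.49 (SE 0.13, adjusted p = 2.2e-04 by limma), a 2.82-fold lower level in NA16, and 2.02% of all genes had a lower change.

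Phgdh, the dehydrogenase that opens the pathway, was not called. Its probe set was dim, with log2 values of 6.08, 6.42 and 6.41 in A16 and 6.07, 6.09 and 6.25 in NA16, and 20.5% of genes had a dimmer one. The ranges of the states overlapped. The log2 change was -0.20 (SE 0.12, adjusted p = 0.25 by limma), with a 95% confidence interval from -0.49 to 0.08. The interval leaves out a fall of the size seen for Psat1 on this scale, and with 16, the floor of the deposited intensities, subtracted from the linear values the change was -0.26 (adjusted p = 0.22 by limma).

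Transcripts of the serine hydroxymethyltransferases of both compartments fell. Shmt2, the mitochondrial enzyme, read 12.22, 12.29 and 12.45 in A16 and 9.79, 10.59 and 10.57 in NA16. Biological replicate 1 of NA16 lay 0.78 log2 units or more below the other NA16 arrays, and all NA16 arrays lay at least 1.63 units below A16. The change of Shmt2 was -1.93 (SE 0.16, adjusted p = 1.8e-04 by limma), a 3.81-fold lower level and the lowest change among the 10, with 0.703% of all genes lower still. Shmt1, the cytosolic enzyme, read 10.58, 10.40 and 10.70 in A16 and 8.99, 9.12 and 9.07 in NA16, with the states 1.28 units apart. Its change was -1.45 (SE 0.13, adjusted p = 2.6e-04 by limma). The fall of Shmt2 was 0.48 log2 units deeper than that of Shmt1, and this difference was -0.39 on PLIER values, -0.32 without NA16 replicate 1 and -0.64 without NA16 replicate 2.

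The upstream sequence of Shmt1 is shown because it holds the letters CACGTG, the canonical E-box read by MYC and related factors, more than once. CACGTG is its own reverse complement, so a match counts for both strands. RefSeq windows of 300 bases on GRCr8, from 250 before to 50 after the gene start, were given for 9 of the 10 genes. The window of Psat1, chr1:222645359-222645658 on the minus strand, lay inside the gene as annotated, which starts at 222646187. It does not cover the bases before that start. CACGTG occurred in 2 of these 9 windows, Shmt1 and Cth, against 6.42% of 33469 windows and 8.92% of the 11733 windows of genes tested here. It occurred in 11% of the windows of genes called lower and in 10.7% of those called higher. In Shmt1 the matches began 89 and 61 bases before the gene start. The 250 bases before the start, chr10:45990342-45990591 on the minus strand, read as follows from 5′ to 3′, with CACGTG in capitals.
Shmt1: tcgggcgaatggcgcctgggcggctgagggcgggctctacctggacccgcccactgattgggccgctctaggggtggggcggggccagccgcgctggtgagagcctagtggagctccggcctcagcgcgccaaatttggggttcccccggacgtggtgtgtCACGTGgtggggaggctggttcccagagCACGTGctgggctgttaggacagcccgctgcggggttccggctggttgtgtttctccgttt

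The folate enzyme genes of the Mthfd family differed in their measured changes, though the exact tests of these differences below could not reach the threshold. Mthfd1, the cytosolic trifunctional enzyme, read 12.23, 11.96 and 12.32 in A16 and 10.46, 10.29 and 10.45 in NA16. Every NA16 array was below every A16 array. The change was -1.75 (SE 0.14, adjusted p = 2.0e-04 by limma), or 3.36-fold lower. Mthfd2, the mitochondrial dehydrogenase and cyclohydrolase, read 10.64, 10.57 and 10.71 in A16 and 10.02, 10.11 and 10.16 in NA16. Its states were separate but only 0.41 units apart. The change of Mthfd2 was -0.52 (SE 0.11, adjusted p = 0.0096 by limma), and it was not called without NA16 replicate 1 (-0.51, adjusted p = 0.063 by limma).

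Mthfd1l, the mitochondrial enzyme that releases formate from its folate carrier, was the only one of the 10 that rose. It read 9.69, 9.88 and 9.81 in A16 and 10.03, 10.73 and 10.53 in NA16. The states did not overlap, but biological replicate 1 of NA16 lay within 0.14 log2 units of the highest A16 array and 0.51 or more below the other NA16 arrays. The change was 0.69 (SE 0.17, adjusted p = 0.016 by limma), with a 95% confidence interval from 0.29 to 1.08. This call depended on how technical replicate 2 was used, since the labels do not state outright which biological replicate it repeats. In NA16 it correlated better with biological replicate 2 (r = 0.997) than with biological replicate 1 (r = 0.993). In A16 it correlated better with biological replicate 1 (r = 0.997) than with biological replicate 2 (r = 0.991). Averaged with biological replicate 2 in both states, Mthfd1l changed by 0.56 (adjusted p = 0.094 by limma), and with technical replicate 2 left out by 0.59 (adjusted p = 0.13 by limma). Without A16 replicate 1 the change was 0.62 (adjusted p = 0.083 by limma), and without NA16 replicate 2 it was 0.46 (adjusted p = 0.098 by limma).

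The upstream sequence of Mthfd1l, the gene that rose, is shown beside that of Shmt1 for comparison. Like the windows of Psph, Psat1, Shmt2 and Mthfd2, which fell, it held 0 matches to CACGTG. This says only that these letters are not in the window, and a link of them to the changes was not tested. The 250 bases before the start lie at chr1:42849174-42849423 on the plus strand of GRCr8 and are given by RefSeq as follows, from 5′ to 3′.
Mthfd1l: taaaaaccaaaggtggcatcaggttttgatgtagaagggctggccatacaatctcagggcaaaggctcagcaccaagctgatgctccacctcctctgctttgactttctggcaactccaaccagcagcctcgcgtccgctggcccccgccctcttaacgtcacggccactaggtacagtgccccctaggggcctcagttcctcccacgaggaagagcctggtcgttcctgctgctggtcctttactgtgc

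The transsulfuration gene of the second enzyme had a lower RNA level. Cth, which releases cysteine from cystathionine, read 10.39, 10.27 and 10.36 in A16 and 8.76, 8.50 and 8.59 in NA16. All NA16 arrays were at least 1.51 log2 units below all A16 arrays. The change was -1.73 (SE 0.12, adjusted p = 1.1e-04 by limma), or 3.33-fold lower, and 1.12% of all genes changed by a lower amount. Cbs, which makes cystathionine from serine and homocysteine, read 5.76, 5.64 and 5.82 in A16 and 5.63, 5.64 and 5.63 in NA16. These values overlapped and were dim, with linear intensities of 49.5 to 56.7, and 12.2% of genes had a dimmer probe set. The change of Cbs was -0.08 (SE 0.12, adjusted p = 0.68 by limma), with a 95% confidence interval from -0.36 to 0.20.

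The upstream sequence of Cth is shown as the other enzyme gene with CACGTG in its window. The match began 178 bases before the gene start. The 250 bases before the start lie at chr2:249661067-249661316 on the minus strand of GRCr8 (RefSeq) and read from 5′ to 3′, with CACGTG in capitals, as follows.
Cth: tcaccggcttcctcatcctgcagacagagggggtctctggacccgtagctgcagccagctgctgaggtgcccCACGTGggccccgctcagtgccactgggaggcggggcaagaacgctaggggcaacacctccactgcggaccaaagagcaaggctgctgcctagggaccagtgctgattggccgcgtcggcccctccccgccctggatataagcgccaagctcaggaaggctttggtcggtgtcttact

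**Figure D1:**
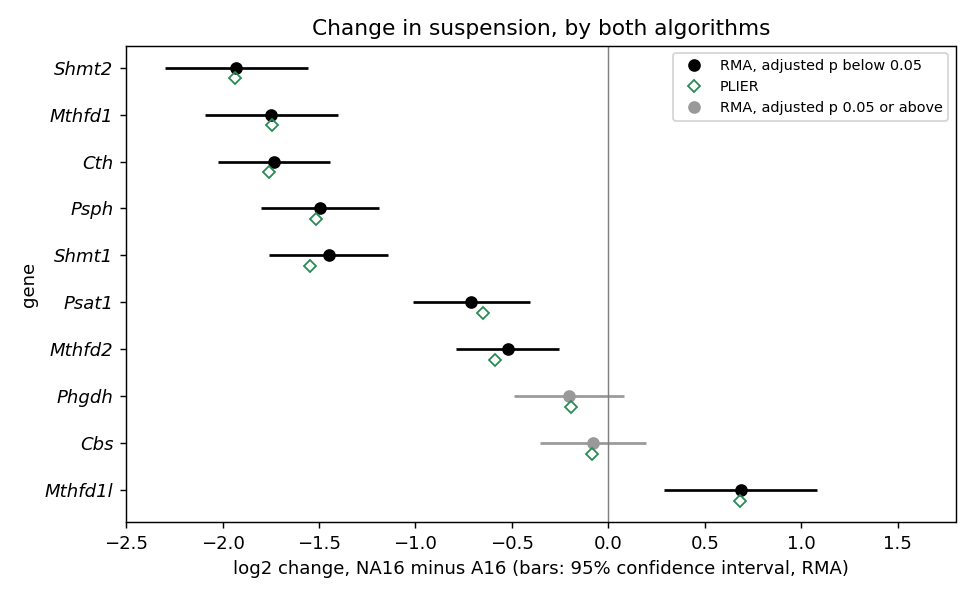
Log2 change from A16 to NA16 (horizontal axis) of the 10 enzyme genes (vertical axis), with 95% confidence intervals from limma on RMA values (circles, black where called and grey where not) and the change on PLIER values (open green diamonds). The intervals of 7 genes lie below 0, that of Mthfd1l lies above 0, those of Phgdh and Cbs span 0, and both algorithms give every gene the same sign.

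The related enzymes were compared pairwise in their change, since levels of different probe sets cannot be compared. The change of Mthfd1l exceeded that of Mthfd1 by 2.43 log2 units, and that of Mthfd2 exceeded Mthfd1 by 1.22. Mthfd1l rose, and Mthfd2 fell by less than the cytosolic enzyme. The change of Cth was 1.65 units below that of Cbs. Mthfd2l, a close relative of Mthfd2, fell by 0.85 (adjusted p = 0.0020 by limma), so that Mthfd2 exceeded it by 0.33, or by 0.20 on PLIER values. In the exact two-sided permutation test over the 2 replicates of each state all 5 pairs, Shmt2 and Shmt1 among them, gave p = 0.333, the smallest value this design allows. Over the 3 arrays of each state, technical replicates counted as samples, all 5 gave the exact p = 0.1 (0.1 after Benjamini-Hochberg adjustment over 5 pairs), again the smallest possible. None of these differences could therefore reach the threshold in the exact tests, which were the only tests of them made, and the sign of each was the same in the alternatives computed.

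On PLIER values, the second algorithm the authors applied to the same arrays, the 10 genes kept their signs and 8 were called. Of these 7 were lower and 1 was higher, beside 2392 lower and 3207 higher of the 14217 genes. The fall of Shmt2 was 3.83-fold, that of Cth 3.38-fold, that of Mthfd1 3.35-fold, that of Shmt1 2.93-fold and that of Psph 2.86-fold. Psat1 fell 1.57-fold, and Mthfd2 also fell. Mthfd1l rose 1.60-fold. The order of the enzymes by change was thus the same at both ends of the list, with Shmt2 lowest and Mthfd1l highest.

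**Figure D2:**
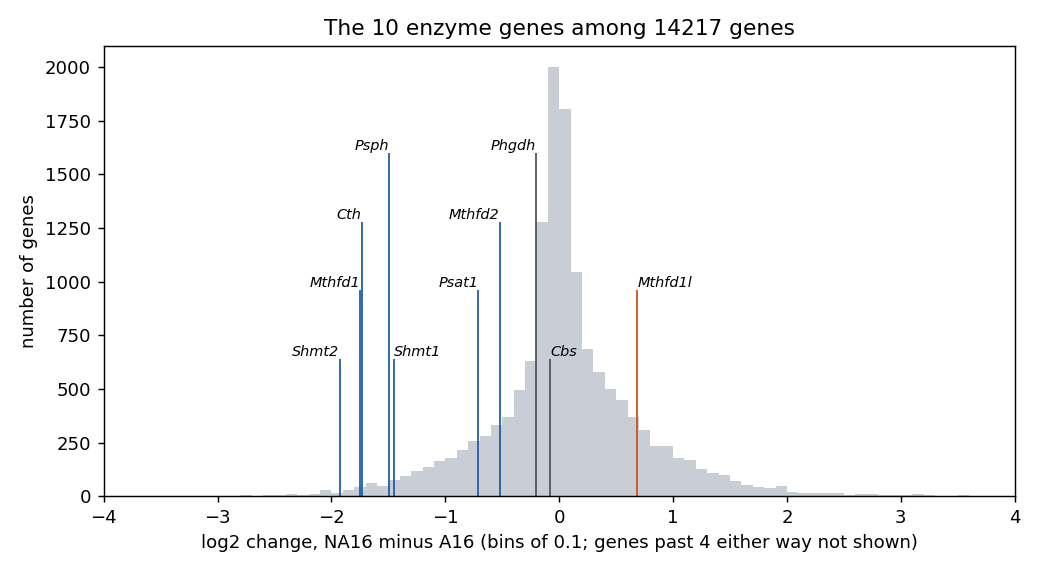
Number of genes (vertical axis) by log2 change from A16 to NA16 (horizontal axis, bins of 0.1) over the 14217 genes, with lines at the 10 enzyme genes: blue for those called lower, orange for the one called higher and grey for those not called; line heights carry no value. Shmt2, Mthfd1, Cth, Psph and Shmt1 stand in the lower tail, where between 0.703% and 2.19% of all genes had a lower change.

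The genes whose profile over the 6 arrays lay nearest to the extremes were found from the root mean square difference of centred log2 values. Nearest to Shmt2 were Psmd1 (difference 0.08, log2 change -1.96), Tbl3 (0.12, -1.80) and Pkp2 (0.14, -1.86). Psmd1 encodes a proteasome subunit and Pkp2 a desmosomal protein. Nearest to Mthfd1l were Traf4 (0.05, 0.69), Atosb (0.05, 0.59) and Ryr1 (0.06, 0.72). They were picked for likeness over these same arrays, which fixes that they share the low NA16 value of biological replicate 1.

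Beyond the 10 enzymes, the genes around them moved in both directions. Of 64 other genes of the pathway measured, 14 rose, 14 fell and 36 were not called, with a median log2 change of 0.07. That is 21.9% in each direction, beside the 16.9% of all genes called lower and 21.9% called higher.

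Among 19 folate carriers and other folate enzymes 5 fell, 5 rose and 9 were not called. Gart, which uses formyl-folate in purine synthesis, read 10.86, 10.67 and 10.99 in A16 and 9.33, 9.16 and 9.34 in NA16, a change of -1.55 (SE 0.14, adjusted p = 2.5e-04 by limma). Its second probe set fell by 1.31. Atic, the other formyl-folate user of purine synthesis, fell by 1.01, the reduced folate carrier Slc19a1 by 1.03, and thymidylate synthase Tyms by 0.71. On the other side Aldh1l1, which oxidises formyl-folate to carbon dioxide, rose by 1.28 (SE 0.16, adjusted p = 8.4e-04 by limma), with A16 arrays at 7.00, 6.58 and 6.71 and NA16 arrays at 7.88, 8.16 and 7.82. Mtfmt, which formylates the initiator tRNA of mitochondria, rose by 0.87 and Mthfs, which returns 5-formyl-folate to the cycle, by 0.52. The other 2 probe sets of Mthfs were not called, at -0.21 and -0.05. Slc25a32, the mitochondrial folate carrier, rose by 0.44 on a dim probe set (adjusted p = 0.041 by limma), and its second probe set stood at -0.02. It was called in 8 of the 17 alternatives that kept it.

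In glycine cleavage and serine use 2 of 13 genes rose, 2 fell and 9 were not called. Gcsh and Dld, subunits of the glycine cleavage system, fell by 0.85 and 0.43. Gldc, the decarboxylase of the same system, rose by 0.38 (adjusted p = 0.045 by limma) on 1 probe set, and its other 2 probe sets stood at -0.03 and -0.07. Ptdss2, which makes phosphatidylserine, rose by 0.94 on its brightest probe set, while the other 2 stood at -0.05 and -0.18. Dld was called in 11 and Gldc in 7 of 18 alternatives. The serine transporters Sfxn1 of mitochondria (0.36, adjusted p = 0.089 by limma) and Slc1a4 of the cell surface (0.24, adjusted p = 0.19 by limma) were not called.

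In the methionine cycle 4 of 16 genes fell, 1 rose and 11 were not called. Mat2a, the catalytic subunit of methionine adenosyltransferase, read 11.99, 12.04 and 12.09 in A16 and 10.77, 10.66 and 10.75 in NA16. It fell by 1.33 (SE 0.11, adjusted p = 2.1e-04 by limma). A second probe set fell by 2.00, and the remaining one, dim at 6.71 in A16, stood at 0.01. Mat2b, the regulatory subunit of the same enzyme, was 2.30-fold higher (SE 0.12 log2 units, adjusted p = 4.6e-04 by limma). Ahcyl1 fell by 0.68, Ahcy, which splits adenosylhomocysteine to homocysteine, by 0.54, and Enoph1 of methionine salvage by 0.37. The call of Enoph1 was made in 8 of 18 alternatives, and was lost on PLIER values among others. Methionine synthase Mtr (0.29, adjusted p = 0.098 by limma) and its reductase Mtrr (-0.32, adjusted p = 0.17 by limma), which join the folate cycle to the methionine cycle, were not called.

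In cysteine use and sulfur oxidation 6 of 16 genes rose, 3 fell and 7 were not called, with a median change of 0.14. The sulfurtransferases Mpst and Tst rose by 1.16 and 0.58. Slc3a2, the heavy chain shared by the cystine exchanger and other amino acid transporters, rose by 1.04 (SE 0.12, adjusted p = 6.7e-04 by limma), while Slc7a11, the light chain of the cystine exchanger, fell by 0.54. Csad of taurine synthesis rose by 0.77, Ggt7 by 0.76, and Chac1, a glutathione-degrading enzyme, by 0.47. Gclm, the modifier subunit of the first enzyme of glutathione synthesis, fell by 0.71 and Gss, its last enzyme, by 0.39. Of 18 alternatives, Gss was called in 8 and Chac1 in 11. Gclc, the catalytic subunit, was not called on its brightest probe set (-0.30, adjusted p = 0.11 by limma), and its second probe set fell by 0.69.

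**Figure D3:**
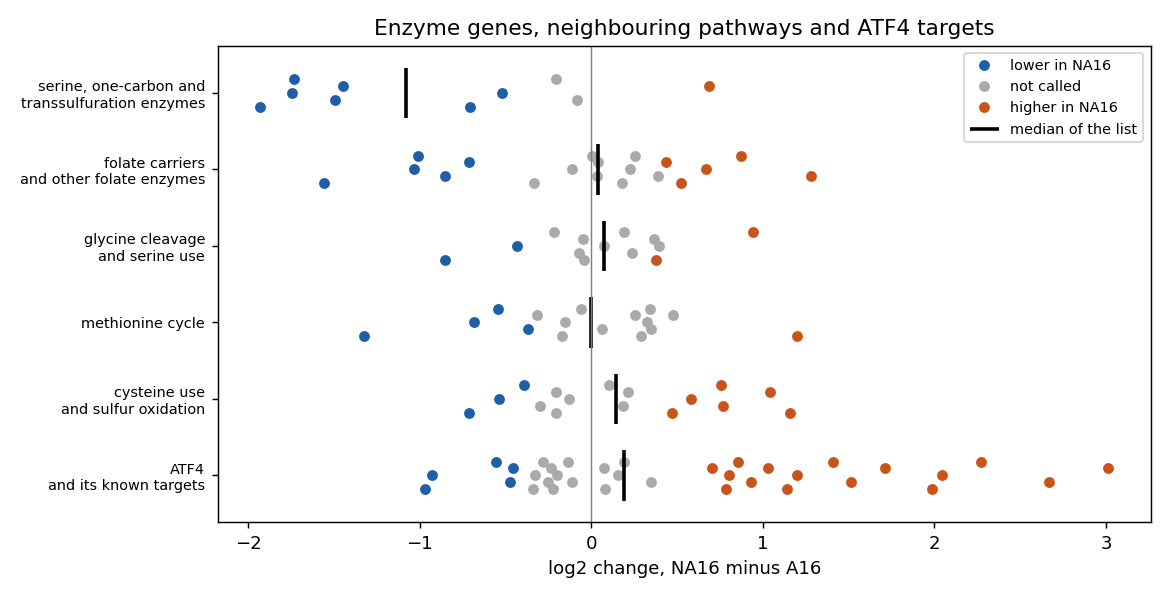
Log2 change from A16 to NA16 (horizontal axis) of every measured gene in the 10 enzyme genes, the 4 neighbouring gene lists and the ATF4 list (vertical axis; vertical scatter within a row carries no value), coloured by call, with a black bar at each list's median. The enzyme genes have a median of -1.08, while the medians of the other lists lie between 0.00 and 0.19 and the ATF4 list reaches 3.01.

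A list of Atf4, known target genes and upstream kinases was set beside the enzymes, since ATF4 is a known activator of several of these enzymes. Of 35 genes of this list 16 rose, 5 fell and 14 were not called, with a median change of 0.19. Its kinases Eif2ak1, Eif2ak2, Eif2ak3 and Eif2ak4 act upstream of ATF4 and are not its targets. Eif2ak1, Eif2ak2 and Eif2ak3 are among the rises (0.93, 0.81 and 1.20), and Eif2ak4 was not called (-0.23). Atf4 itself read 12.79, 13.10 and 12.81 in A16 and 13.83, 14.01 and 14.08 in NA16, a change of 1.03 (SE 0.14, adjusted p = 0.0012 by limma). Its NA16 arrays were all above its A16 arrays. The called genes of the list that moved furthest all rose. Ddit3, which encodes CHOP, rose by 3.01, Ddit4, an inhibitor of mTORC1, by 2.67, the lipoprotein receptor gene Vldlr by 2.27, the pseudokinase Trib3 by 2.05, Nupr1 by 1.99 and the alanine aminotransferase Gpt2 by 1.71. The 5 called falls were the tRNA synthetases Tars1 (-0.97) and Gars1 (-0.46), Aldh18a1 of proline synthesis (-0.93), asparagine synthetase Asns (-0.56) and the transporter Slc7a5 (-0.47). The arrays of Slc7a5 overlapped between the states, and of 18 alternatives it was called in 9 and Gars1 in 11. Asns read 11.41, 11.29 and 11.42 in A16 and 10.87, 10.75 and 10.83 in NA16. In the same arrays Psat1, Psph, Shmt2, Mthfd2 and Cth fell, Phgdh was not called and Mthfd1l rose. Of the cysteine genes, Slc3a2 and Chac1 rose while Slc7a11 fell (-0.54).

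The C/EBP-ATF response element, to which ATF4 binds, was searched in the same windows as TGATGNAA on both strands. It occurred in 0 of the 9 windows of the enzyme genes, in 3.98% of all 33469 windows, in 2.21% of those of tested genes, and in 10 of 32 windows (31.2%) of the ATF4 list. A window without these letters says nothing of sites elsewhere in the gene, and that of Psat1 did not reach its annotated gene start. In the ATF4 list Pck2, Slc7a1, Aars1, Nars1 and Cars1, which were not called, and Fgf21, which rose, also held the element. The matches of Trib3, Nupr1 and Tars1 are shown because the first pair rose and Tars1 fell with a similar element near the start. They began 21, 55 and 27 bases before the gene start, at chr3:161275534-161275574, chr1:190645929-190645976 and chr2:62114803-62114849 on the minus strand of GRCr8 (RefSeq). From 5′ to 3′, with the element in capitals on the reverse strand, they read as follows.
Trib3: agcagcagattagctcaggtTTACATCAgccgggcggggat
Nupr1: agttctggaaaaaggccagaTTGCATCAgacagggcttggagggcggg
Tars1: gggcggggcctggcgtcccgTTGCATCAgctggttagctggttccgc

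Of 10 other regulators measured, 3 rose, 1 fell and 6 were not called. Myc, whose product is known to bind CACGTG in genes of serine and folate metabolism, read 10.61, 10.52 and 10.56 in A16 and 9.93, 9.96 and 10.11 in NA16, a fall of 0.56 (SE 0.11, adjusted p = 0.0069 by limma). Its states did not overlap. Kdm4c, a histone demethylase, rose by 1.86, Mdm2 by 0.86 on a probe set in step with its other 2 (0.80 and 0.97), and Nfe2l2, which encodes NRF2, by 0.44. The antioxidant response element read by NRF2 was searched as TGACNNNGC on both strands. It occurred in 1 of the 9 enzyme windows, that of Phgdh, where it began 20 bases after the gene start. It occurred in 12.1% of all windows and in 14.4% of those of tested genes.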

How the data were processed

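Labelled RNA of F111 cells was hybridised to Affymetrix rat genome arrays, 3 per state. The authors scanned them with Gene Chip Operating Software 2.1 and normalized them in Avadis by RMA and by PLIER, with versions not given in the sources used here. Intensities were deposited by the authors on a linear scale, in 12 columns for the 6 arrays. The lowest RMA intensity was 16.05 and PLIER was bounded at 16, so changes of dim genes may be understated. Array number, not read depth, limits the precision.

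Log2 of each RMA intensity was taken. Probe sets were named by the platform annotation (20826 of 31042 with 1 symbol, 436 with several and 9780 with none here), and the brightest stood for its gene, which gave 14217 genes. The labels point to biological replicate 1 as the source of technical replicate 2, without stating it. No label says that replicates were separate cultures, so a p-value here reflects only how far these samples spread, possibly for technical reasons. The states were tested with limma 3.58.1 (lmFit, then eBayes) in R 4.3.3, which left 2 residual and 4.78 prior degrees of freedom. The p-values of all genes were adjusted by Benjamini-Hochberg, and genes below 0.05 were called. The code was tested on simulated data.

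The 10 enzymes, the gene lists and the tests were chosen with earlier results of these data known. Named were the 10 enzymes, up to 6 called genes of each list by size of change, genes whose role the text needed, and the 3 nearest profiles. Promoter windows came from the RefSeq table of GRCr8. In all, 18 alternatives were computed, 1 of them chosen after seeing the data. They covered PLIER values, the use of technical replicate 2, blocks, variance models, the methods' t-test, probe set choice, low-intensity filtering, offset, scaling and left-out replicates. Figures were drawn with matplotlib 3.10.9.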

Additional observations from a re-analysis of the deposited data

How the results depend on the processing

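The falls of Shmt2, Mthfd1, Cth, Psph, Shmt1 and Psat1 were called in 17 of the 18 alternatives, the exception being the methods' t-test, and Mthfd2 in 16. Mthfd1l was called in 12. Of the other called genes, Atosb was called in 10 of 18, Traf4 in 12, Ryr1 and Ggt7 in 13, and Ahcy, Csad, Mthfs, Slc7a11 and Nfe2l2 in 14. The count of enzyme genes called higher was 0 with technical replicate 2 averaged with biological replicate 2, with it left out, and, in an alternative chosen after seeing the data, with it averaged with the array it correlated with best. With it left out 18 of 64 other pathway genes and 4205 of 14217 genes were called, against 28 and 5524 with it. By the methods' t-test after Benjamini-Hochberg adjustment 20 genes were called, 13 higher and 7 lower (4643 at an unadjusted p below 0.05). None of the enzyme genes or probe sets was among them (0 higher, 0 lower, 7 at an unadjusted p below 0.05), nor any other pathway gene (0, with 22 unadjusted) or ATF4 gene (0, with 18 unadjusted). That test borrows no spread across genes.

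Over single replicates left out, the number of enzyme genes called higher ranged from 0 to 1 and that of enzyme probe sets called from 5 to 7, with 5 without NA16 replicate 2 and 6 without A16 replicate 1. The lone sample was then assumed to vary like the other state. The states share replicate numbers that no label pairs. With the replicate number as a block 7019 genes, 8 enzyme genes (7 lower, 1 higher), 39 other pathway genes and 23 genes of the ATF4 list were called. The deviations of same-numbered replicates correlated at 0.54 over probe sets. No sign turned among the named genes followed over the alternatives, which left out the cell type markers and the Eif2ak kinases. The 2 replicates per state limit the precision.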
